A study of Mus musculus with 8 samples.

Results

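The gap between the responses of mouse muscle stem cells to BMP6 and to BMP4 is described here gene by gene. Within each cell isolation the change was the log2 of TPM plus 0.5 in the stimulated culture minus the same quantity in the vehicle culture. TPM is a share of a library's transcripts, corrected for their length. The mean change of the BMP4 isolations (48 and 54) was then subtracted from that of the BMP6 isolations (75 and 77), so a positive difference means a more positive change with BMP6. Of 55223 loci in the expression table, 15121 averaged 1 TPM or more across the 8 libraries and were members. All cells were muscle stem cells of female wildtype C57BL/6J mice aged 6 to 8 weeks, grown on Matrigel for 2 days. Every culture, vehicle cultures included, then spent 6 h in serum-free medium to which 200 ng/ml of BMPR-IA/ALK3-Fc had been added, a soluble receptor that captures BMPs left from the medium. Cultures received a pulse of 1 h with 100 ng/ml BMP4 or 100 ng/ml BMP6, or with vehicle alone (4 mM HCl with 0.1% BSA). Vehicle cultures of isolations 48 and 54 are named vehicle_a and those of isolations 75 and 77 vehicle_b, which gives 4 groups of n = 2 libraries. No isolation received both ligands, so the ligand and the experiment cannot be told apart in any difference below. The labels do not say whether an isolation pooled several mice.

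BMP4 and BMP6 are secreted dimers of the TGF-beta superfamily that assemble type I and type II serine/threonine kinase receptors, which phosphorylate SMAD1, SMAD5 and SMAD9. BMP4 binds the type I receptors BMPR1A and BMPR1B with high affinity, while BMP6 is known for signalling through ACVR1 together with the activin type II receptors. Activated SMADs join SMAD4 in the nucleus and switch on Id genes, inhibitory SMADs and other rapid targets, and in muscle stem cells BMP signals are known to favour proliferation over differentiation.

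The libraries held between 48012828 and 58002740 reads as estimated from coverage. Pax7 and Myod1, which mark muscle stem cells and myoblasts, were expressed in all 8 libraries, while markers of other cells were mostly low. Of 12 immune cell markers, those listed at 0 in every library included Ptprc, Adgre1, C1qa and Tyrobp, but Itgam stood between 10.9 and 17.1 TPM and Cd68 between 0.919 and 2.01 TPM. Of 10 endothelial markers, Tie1 and Emcn were listed at 0 in every library, and Egfl7 was the highest with 1.9 to 3.48 TPM. The experiments differed before any ligand was added. The summed level of 18 muscle fibre markers was 4991 and 19080 TPM in vehicle_a but 671.9 and 942.8 TPM in vehicle_b. Of the 18, 17 were lower in both vehicle_b libraries than in both vehicle_a libraries, beside 5878 of all 15121 members. The summed level of 8 of 11 pericyte and smooth muscle markers was 1967 and 3221 TPM against 498.1 and 802.4 TPM. That of 6 of 12 fibroblast markers was 424.8 and 824.4 TPM against 92.61 and 102.3 TPM. These sums leave out list members that averaged under 1 TPM, such as Rgs5 (0 to 0.294 TPM) and Pdgfra (0.193 to 0.354 TPM). Des, at 412 to 1560 TPM, counts in the pericyte sum and was also listed among the muscle stem cell and myogenic genes. Fewer cells of a type and less RNA per cell cannot be told apart in such bulk libraries. The part of these starting states in the differences between the responses was not tested.

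No gene passed the test of the difference itself. limma with the isolation as a block gave 0 of 15121 loci (0.0%) below a Benjamini-Hochberg adjusted p of 0.05, and no locus came under 0.105. At an unadjusted p under 0.05 there were 2153 loci (14.2%), of which 1170 (7.74%) had the more positive change with BMP6 and 983 (6.5%) the less positive. voom, which weights by estimated reads, with the same block called 43 loci (0.284%), 10 of them (0.0661%) with the more positive and 33 (0.218%) with the less positive change with BMP6. limma called 48 loci without isolation 48, 38 without isolation 54, 0 without isolation 75 and 1 without isolation 77, where the lone isolation is assumed to vary like the others. In terms of the single isolations, both BMP6 isolations lay above both BMP4 isolations at 4034 loci (26.7%) and below them at 3289 loci (21.8%). A clear space of at least 1 log2 unit between the ligands was found at 8 loci (0.0529%) with BMP6 higher and at 16 loci (0.106%) with BMP6 lower. The sign of the change was positive in both BMP6 and negative in both BMP4 isolations at 1495 loci (9.89%), and the reverse at 1171 (7.74%). An exact permutation of 2 isolations against 2 cannot give a two-sided p below 0.333, so single genes have no such test here.

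Responses to the ligands were set side by side at the loci that responded on average. The mean of both responses passed limma's test at 121 loci (0.8%), 111 (0.734%) higher and 10 (0.0661%) lower. That count was 320, 202, 24 and 37 without isolation 48, 54, 75 and 77 in turn, and 12 without the block. Of these 121 loci, 119 had the same sign of change with both ligands, which their choice by the mean of both responses nearly fixes. Of the 140 loci called for the BMP4 response, 113 had the same sign with BMP6 and 27 the opposite sign, beside 7408 and 7713 of all members. Of the 30 called for the BMP6 response, 30 had the same sign with BMP4. At 73 of the 121 loci the log2 change was less positive with BMP6 and at 48 more positive. The median difference over the 121 was -0.25, with quartiles of -0.64 and 0.25. Over these 121 loci the changes of isolations 48 and 54 correlated with Pearson r = 0.925 and those of isolations 75 and 77 with r = 0.98, while pairs across the ligands gave r between 0.68 and 0.744. These correlations are across genes chosen by the same responses, and they describe these libraries only. The median absolute gap between isolations at these loci was 0.18 log2 units within BMP4, 0.10 within BMP6, and 0.43 to 0.47 across the ligands. The test that chose the loci favours small gaps within a ligand. Over all members the Pearson r was 0.241 within BMP4, 0.19 within BMP6 and 0.098 to 0.23 across the ligands. The median absolute gaps there were 0.124, 0.089 and 0.134 to 0.15 in the same order. For single responses, BMP4 called 140 loci (0.926%), 117 (0.774%) higher and 23 (0.152%) lower, and BMP6 called 30 (0.198%), 27 (0.179%) higher and 3 (0.0198%) lower, or 3 and 2 in all without the block, which by itself is no test of a difference between them. The BMP4 count was 281, 29 and 31 without isolation 48, 75 and 77, and the BMP6 count 73, 77, 0 and 2 without isolation 48, 54, 75 and 77.

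**Figure D1:**
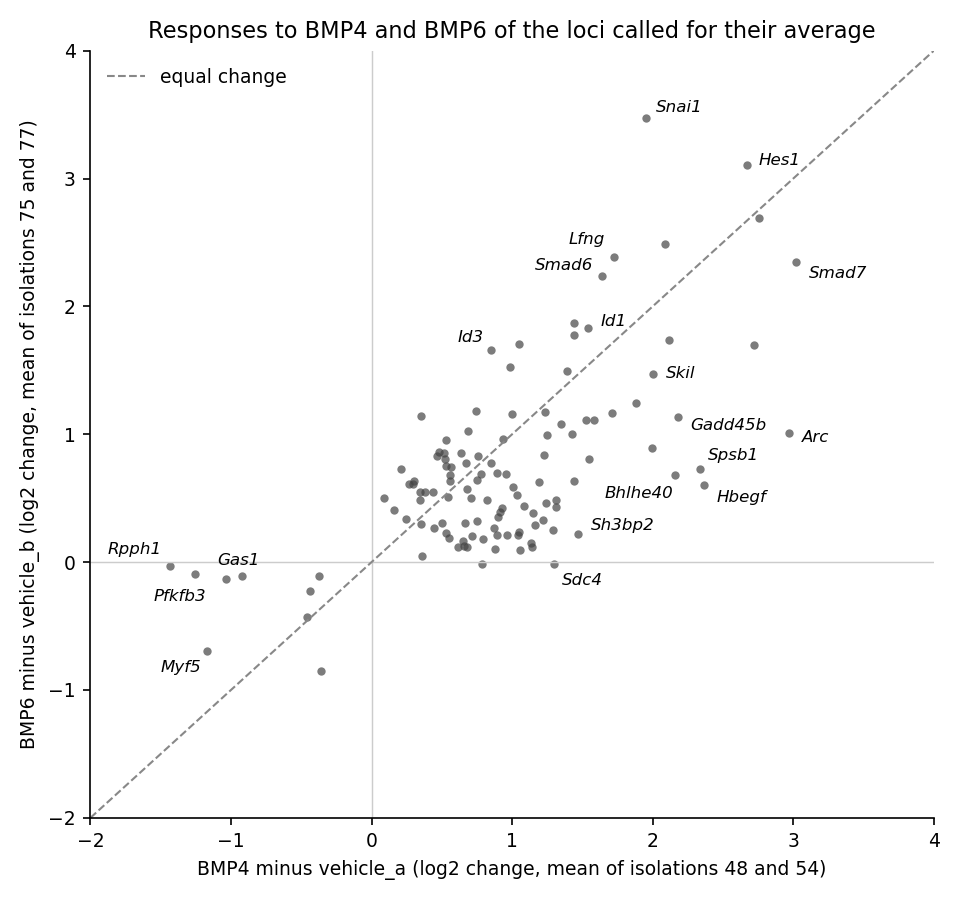
Log2 change with BMP4 (horizontal axis, mean of isolations 48 and 54) against log2 change with BMP6 (vertical axis, mean of isolations 75 and 77) for the 121 loci called for their average response. Each point is 1 locus and the dashed line marks equal change. Snai1, Lfng, Smad6 and Id3 lie above the line, while Arc, Hbegf, Spsb1, Bhlhe40 and Sdc4 lie below it.

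Promoter windows of 8 genes described below were searched for 3 motifs, and 4 with a match are shown, from a pair of genes on either side of the difference. Of these 4 genes, Gadd45b was among the 121 loci and Atoh8, Ccn1 and Dusp5 were not. Each covers the 250 bases before the start of the gene in RefSeq on build GRCm38.p6, on the strand of the gene, 5′ to 3′. The windows lie at chr6:72235578-72235827 on the minus strand for Atoh8, chr3:145649986-145650235 on the minus strand for Ccn1, chr19:53528895-53529144 on the plus strand for Dusp5 and chr10:80929841-80930090 on the plus strand for Gadd45b. Capitals mark matches to GGCGCC (a GC-rich motif known from SMAD1/5 binding), to CACGTG (an E-box bound by basic helix-loop-helix factors) or to the CArG box of serum response factor, searched on both strands.
Atoh8: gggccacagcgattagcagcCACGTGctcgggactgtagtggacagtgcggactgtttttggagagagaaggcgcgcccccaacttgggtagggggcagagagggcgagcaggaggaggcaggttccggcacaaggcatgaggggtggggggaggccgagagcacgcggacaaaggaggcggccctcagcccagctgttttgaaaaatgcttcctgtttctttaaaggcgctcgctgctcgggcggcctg
Ccn1: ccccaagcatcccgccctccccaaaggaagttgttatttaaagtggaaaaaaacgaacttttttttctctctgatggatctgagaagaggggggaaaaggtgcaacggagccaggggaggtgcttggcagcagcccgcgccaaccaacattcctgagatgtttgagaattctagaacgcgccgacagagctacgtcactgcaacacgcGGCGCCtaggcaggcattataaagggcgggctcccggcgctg
Dusp5: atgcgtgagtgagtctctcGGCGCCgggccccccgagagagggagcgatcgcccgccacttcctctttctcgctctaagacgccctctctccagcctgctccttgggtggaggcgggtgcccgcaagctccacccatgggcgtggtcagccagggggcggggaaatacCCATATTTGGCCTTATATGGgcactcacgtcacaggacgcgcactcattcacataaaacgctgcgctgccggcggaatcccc
Gadd45b: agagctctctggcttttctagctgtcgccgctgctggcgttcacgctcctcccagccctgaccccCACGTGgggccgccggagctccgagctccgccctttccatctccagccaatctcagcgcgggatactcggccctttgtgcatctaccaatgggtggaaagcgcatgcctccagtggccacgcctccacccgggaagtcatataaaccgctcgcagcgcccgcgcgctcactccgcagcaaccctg
Atoh8 and Ccn1 had the more positive change with BMP6, and Dusp5 and Gadd45b the less positive. The Dusp5 window holds a pair of adjoining CArG boxes as well as GGCGCC, the Ccn1 window holds GGCGCC, and the windows of Atoh8 and Gadd45b hold CACGTG. Of the windows not shown, that of Rnf19b holds GGCGCC, and those of Id3, Snai1 and Sdc4 hold none of the motifs. Of all 32851 windows in the RefSeq table, 9.59% hold GGCGCC, 6.02% CACGTG and 1.47% a CArG box. Of the 11470 windows that belong to members, 17.3% hold GGCGCC, 8.48% CACGTG and 1.27% a CArG box. Among the 121 responders, GGCGCC was in 8 of 39 windows (20.5%) of genes with the more positive change with BMP6 and in 15 of 58 windows (25.9%) of genes with the less positive change. CACGTG was in 7 windows of either set (17.9% and 12.1%) and the CArG box in 0 windows of either. These are matches of letters and not measured binding.

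The direct target genes of the BMP SMADs did not lean to either ligand as a group. Of 38 listed targets 31 were members, with a median difference of 0.02, beside 0.02 over all members. The median change of the list was 0.85 with BMP4 and 0.99 with BMP6. By isolation it was 0.53 in 48 and 1.21 in 54, and 0.935 in 75 and 1.06 in 77. The BMP4 isolations thus lay on either side of the BMP6 isolations. Both BMP6 isolations lay above both BMP4 isolations for 8 targets and below them for 9, shares near the 26.7% and 21.8% of all members. An unadjusted p under 0.05 was reached by 5 and 6 of these 31 in the same order, beside 7.74% and 6.5% of all members. BMP4 raised 13 of the 31 and BMP6 raised 9 by limma's adjusted p, beside 0.774% and 0.179% of all members.

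Id genes encode helix-loop-helix proteins that bind E proteins and keep them from DNA. Id1 (chr2:152578171-152579330, GRCm39) stood at 149 and 100 TPM in vehicle_a and 349 and 365 TPM with BMP4, and at 103 and 117 TPM in vehicle_b and 379 and 403 TPM with BMP6. It rose with both ligands, to levels slightly higher in the BMP6 than in the BMP4 libraries. The difference in its log2 change was 0.29 (95% interval -0.25 to 0.82, limma adjusted p = 0.562), and the isolations overlapped. Id2 gave -0.04 (interval -0.74 to 0.66) with overlap, and Id4 -0.25 without overlap. Id3 stood at 178 and 96.2 TPM in vehicle_a and 240 and 233 TPM with BMP4. In the BMP6 experiment it went from 117 and 122 TPM to 365 and 392 TPM. Its change was 0.43 and 1.27 with BMP4 against 1.64 and 1.68 with BMP6, a difference of 0.81 ± 0.27 (SE), and the ligands did not overlap.

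Inhibitory SMADs are feedback genes, SMAD6 mainly against BMP receptors and SMAD7 against BMP and TGF-beta receptors alike. Their log2 changes leaned in opposite directions. Smad6 (chr9:63860358-63929341) changed by 1.34 and 1.94 with BMP4 and by 2.04 and 2.43 with BMP6, a difference of 0.60 ± 0.24 (SE). Smad7 changed by 2.85 and 3.19 with BMP4 and by 2.44 and 2.27 with BMP6, a difference of -0.67 ± 0.14 (SE). Both rose with both ligands, and neither difference passed (limma adjusted p = 0.364 for Smad6 and 0.256 for Smad7). Smad9, a signal-transducing SMAD that BMPs induce, had a difference of 0.42. Skil, a SMAD co-repressor, rose with both ligands, by 1.74 and 2.27 with BMP4 and by 1.43 and 1.51 with BMP6. Its difference was -0.53, and it was -0.27 without isolation 54 and -0.80 without isolation 48.

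Other direct targets lay farther apart. Atoh8 (chr6:72183161-72212561), a basic helix-loop-helix factor, stood at 50.1 and 24.2 TPM in vehicle_a and at 44.4 and 32.8 TPM with BMP4. In the BMP6 experiment it stood at 14.0 and 9.57 TPM in vehicle_b and at 38.9 and 40.0 TPM with BMP6. The stimulated cultures thus reached overlapping levels from vehicle levels that did not overlap. Its change was -0.17 and 0.43 with BMP4 and 1.45 and 2.01 with BMP6, a difference of 1.60 ± 0.27 (SE, limma adjusted p = 0.226), and it was not called for either ligand alone.

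Spsb1, a substrate adaptor of a ubiquitin ligase, leaned to BMP4. It went from 3.05 and 6.65 TPM to 20.1 and 30.9 TPM with BMP4, and from 3.74 and 4.21 TPM to 6.04 and 7.93 TPM with BMP6. Its difference was -1.60 ± 0.17 (SE, limma adjusted p = 0.182), and by voom it passed (adjusted p = 0.0482). Tgif1, a homeodomain co-repressor named here after its values were seen, had changes of 0.93 and 1.54 with BMP4 against -0.03 in both BMP6 isolations. It stood at 28.26 and 14.98 TPM in vehicle_a and at 54.38 and 44.64 TPM with BMP4. In the BMP6 experiment it stood at 51.24 and 79.14 TPM in vehicle_b and at 50.18 and 77.55 TPM with BMP6. Klf10, an early TGF-beta and BMP target, was also chosen after its values were seen. It changed by 2.04 and 3.40 with BMP4 and by 1.66 and 1.74 with BMP6. Its level went from 28.56 and 9.95 TPM to 118.9 and 109.8 TPM with BMP4. With BMP6 it went from 39.51 and 50.73 TPM to 125.7 and 170.4 TPM, above both BMP4 libraries. Its difference was -1.02, and it was -0.34 without isolation 54 and -1.70 without isolation 48. The part of the starting levels of Tgif1 and Klf10 in their differences was not tested. Noggin (Nog), the secreted antagonist that binds BMPs, rose with both ligands with a difference of 0.33 (interval -0.20 to 0.87).

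The receptors were present in both experiments, most of them at lower levels in the BMP6 experiment before any ligand was added. Of the 11 receptor and co-receptor genes that were members, 8 were lower in both vehicle_b than in both vehicle_a libraries, beside 5878 of all 15121 members, and 0 had the higher mean in vehicle_b. Their summed level was 144.6 and 265.3 TPM in vehicle_a and 91.48 and 95.39 TPM in vehicle_b. Bmpr1a stood between 19.1 and 28.2 TPM in the 4 vehicle libraries, Acvr1 between 15.3 and 21.3 TPM, Acvr2a between 6.78 and 9.23 TPM, Acvr2b between 0.708 and 1.09 TPM and Bmpr2 between 7.76 and 11.3 TPM. The vehicle levels of Acvr1, Acvr2a and Acvr2b overlapped between the experiments. Acvr1 stood at 17.4 and 19.6 TPM in vehicle_a and 15.3 and 21.3 TPM in vehicle_b. Acvr2a stood at 6.78 and 9.23 TPM against 6.96 and 7.89 TPM, and Acvr2b at 1.09 and 0.989 TPM against 1.03 and 0.708 TPM. Bmpr1b was under the minimum of 1 TPM. The difference in response was -0.08 for Bmpr1a, 0.34 for Acvr1, -0.12 for Acvr2a, -0.07 for Acvr2b and -0.20 for Bmpr2. Over all 11 the median was 0.02, with Rgmb, a BMP co-receptor, highest at 0.55. Most of these genes were named after their values were seen. The 10 members among SMAD transducers and their phosphatases had a median of -0.03, from -0.16 for Smad5, whose locus carries a second gene name, to 0.17 for Ctdsp2, whose locus also carries further names.

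Of 6 members among the Notch effector genes, 4 had a positive and 2 a negative difference, from -1.48 for Bhlhe40 to 0.44 for Hey1, with a median of 0.35. Hes1 (chr16:29884158-29886614), a transcriptional repressor and classical Notch target, went from 14.2 and 11.4 TPM to 119 and 58.7 TPM with BMP4 and from 6.04 and 12.5 TPM to 66.1 and 94.0 TPM with BMP6. It rose with both ligands, its isolations overlapped, and the difference was 0.43 (interval -0.28 to 1.15, limma adjusted p = 0.515). Hey1, a related repressor, was not called for either ligand, and the interval of its difference was -0.24 to 1.13. Lfng (chr5:140593075-140601300), a glycosyltransferase that modifies Notch receptors, went from 4.21 and 3.11 TPM to 12.7 and 13.6 TPM with BMP4. With BMP6 it went from 1.20 and 1.24 TPM to 8.38 and 8.61 TPM. Its change was higher in both BMP6 isolations (2.39 each) than with BMP4 (1.48 and 1.97), a difference of 0.66 ± 0.18 (SE, adjusted p = 0.291).

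Of 27 members among Notch receptors, ligands and machinery, 23 had a positive difference, 11 lay higher in both BMP6 isolations and 3 lower, with a median of 0.10. Over all members 8143 of 15121 had a positive difference, 26.7% lay higher and 21.8% lower. In 22 of the 27 both vehicle_b libraries were lower than both vehicle_a libraries, beside 5878 of all members. Jag1, a Notch ligand, was the lowest at -0.80, with changes of 0.74 and 0.59 for BMP4 and -0.12 and -0.14 for BMP6. Notch3 gave 0.52, and its vehicle level was 41.0 and 55.0 TPM in vehicle_a against 7.69 and 4.27 TPM in vehicle_b.

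Snai1 (chr2:167380115-167384734), a zinc-finger repressor of epithelial genes, had the largest rise with BMP6 among the 121 responders. It went from 4.66 and 3.76 TPM to 55.8 and 47.6 TPM with BMP6, and from 36.0 and 16.9 TPM to 95.5 and 98.1 TPM with BMP4. Its absolute level was higher in both BMP4 libraries, while its log2 change was higher in both BMP6 isolations (3.45 and 3.50 against 1.40 and 2.51). The difference was 1.52 ± 0.35 (SE, limma adjusted p = 0.269). Gse1, a coiled-coil protein of co-repressor complexes, had a difference of 0.66, with changes of 0.88 and 1.21 for BMP4 and 1.46 and 1.96 for BMP6. It too stood higher in both BMP4 libraries (56.6 and 65.5 TPM) than in both BMP6 libraries (33.5 and 34.1 TPM). Its vehicle levels were 30.5 and 28.0 TPM in vehicle_a and 11.85 and 8.39 TPM in vehicle_b.

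**Figure D2:**
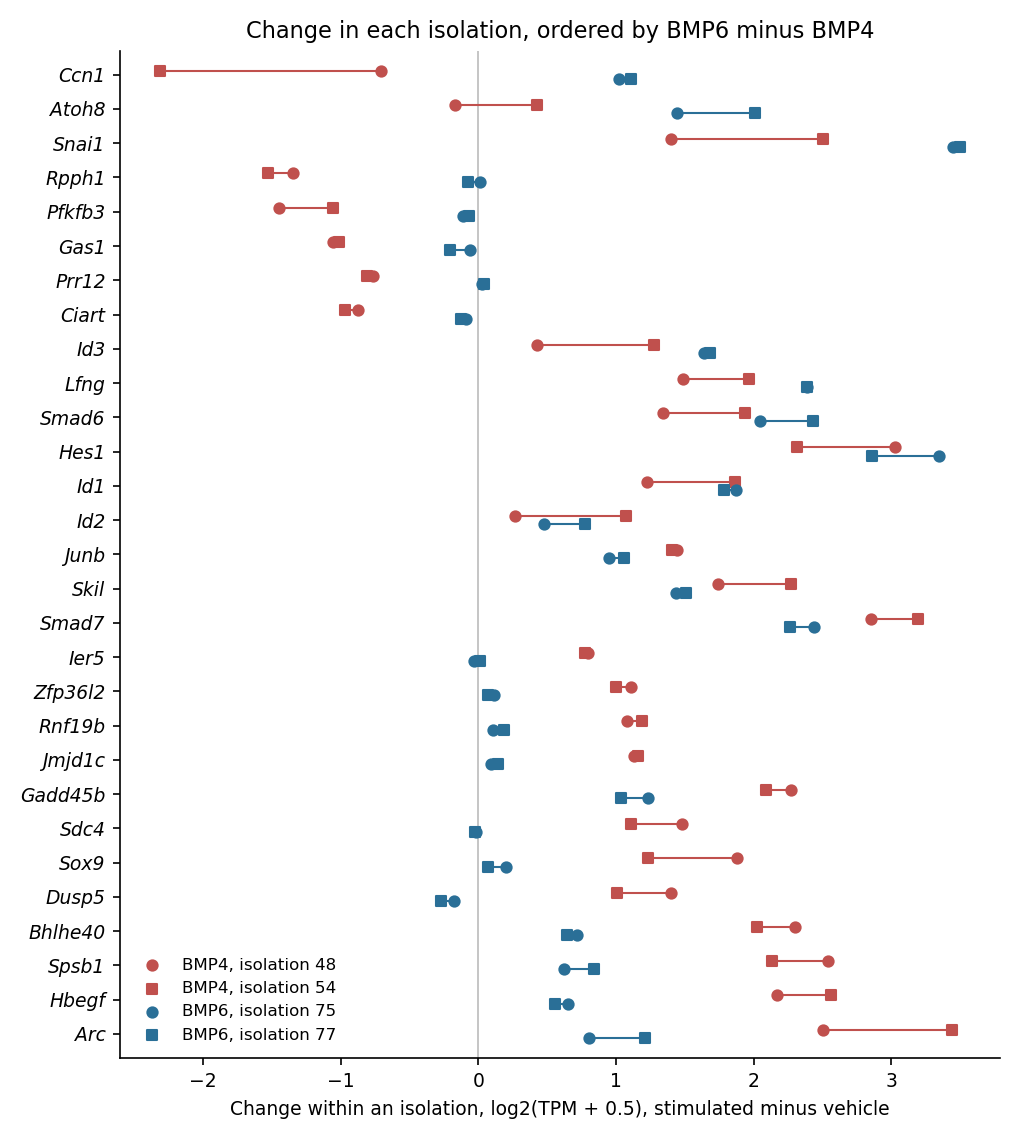
Log2 change in each isolation (horizontal axis) for 29 genes ordered by the difference, with BMP4 isolations in red and BMP6 isolations in blue. A line joins the isolations of a ligand. The points of Id1, Id2 and Hes1 overlap between the ligands, while those of Arc, Hbegf, Spsb1, Bhlhe40 and Dusp5 are apart by over 1 log2 unit.

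The ERK feedback genes, which code for phosphatases and adaptors that the MAP kinase pathway induces to restrain itself, had the less positive change with BMP6 in 13 of 16 members. Their median change was 0.67 and 0.70 in isolations 48 and 54 and 0.04 and 0.03 in isolations 75 and 77, with a median difference of -0.66 beside 0.02 over all members. Both BMP6 isolations were below both BMP4 isolations for 11 of the 16, and 9 had an unadjusted p under 0.05 in that direction, beside 21.8% and 6.5% of all members. BMP4 raised 3 of the 16 by limma's adjusted p and BMP6 raised 0, beside 0.774% and 0.179% of all members.

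Their vehicle levels also differed between the experiments. In 12 of the 16 both vehicle_b libraries were higher than both vehicle_a libraries, beside 5464 of all 15121 members. In 10 of the 16 both BMP6 libraries were higher than both BMP4 libraries, beside 5456 of all members. The change with BMP6 therefore started from a higher level in most of these 16 genes, and the part of that in the difference was not tested. Both quantities use the same vehicle libraries.

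Dusp5 (chr19:53517540-53530862), a nuclear phosphatase of ERK, went from 3.24 and 5.47 TPM to 9.34 and 11.5 TPM with BMP4. In the other experiment it stood at 13.1 and 23.2 TPM in vehicle_b and 11.5 and 19.2 TPM with BMP6. Its difference was -1.43 ± 0.15 (SE, limma adjusted p = 0.182; by voom 0.0338). Fosl1, an AP-1 subunit named after its values were seen, stood at 9.04 and 2.27 TPM in vehicle_a but at 56.8 and 47.6 TPM in vehicle_b, and its difference was -0.81. Dusp4, another ERK phosphatase, stood at 9.44 and 8.58 TPM in vehicle_a and at 59.5 and 54.1 TPM in vehicle_b, with a difference of -0.98. Sprouty genes restrain receptor tyrosine kinase signalling. Spry1 and Spry2 had differences of -0.76 and -0.79, Plaur, the urokinase receptor, one of -0.78, and Etv5, an ETS factor, one of -0.55. These 5 were also chosen after their values were seen, and Spred3 was the highest of the list at 0.31.

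Hbegf, a membrane-bound ligand of the EGF receptor, was among the most separated genes. It went from 2.31 and 4.09 TPM to 12.1 and 26.6 TPM with BMP4 and from 2.88 and 5.47 TPM to 4.81 and 8.28 TPM with BMP6. Vehicle levels overlapped here, and both BMP4 libraries lay above both BMP6 libraries. The difference was -1.76 ± 0.16 (SE, limma adjusted p = 0.138; by voom 0.0148). Erbb2, a receptor of the same family, had one of 0.57, and the 8 members of the family gave a median of -0.11.

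**Figure D3:**
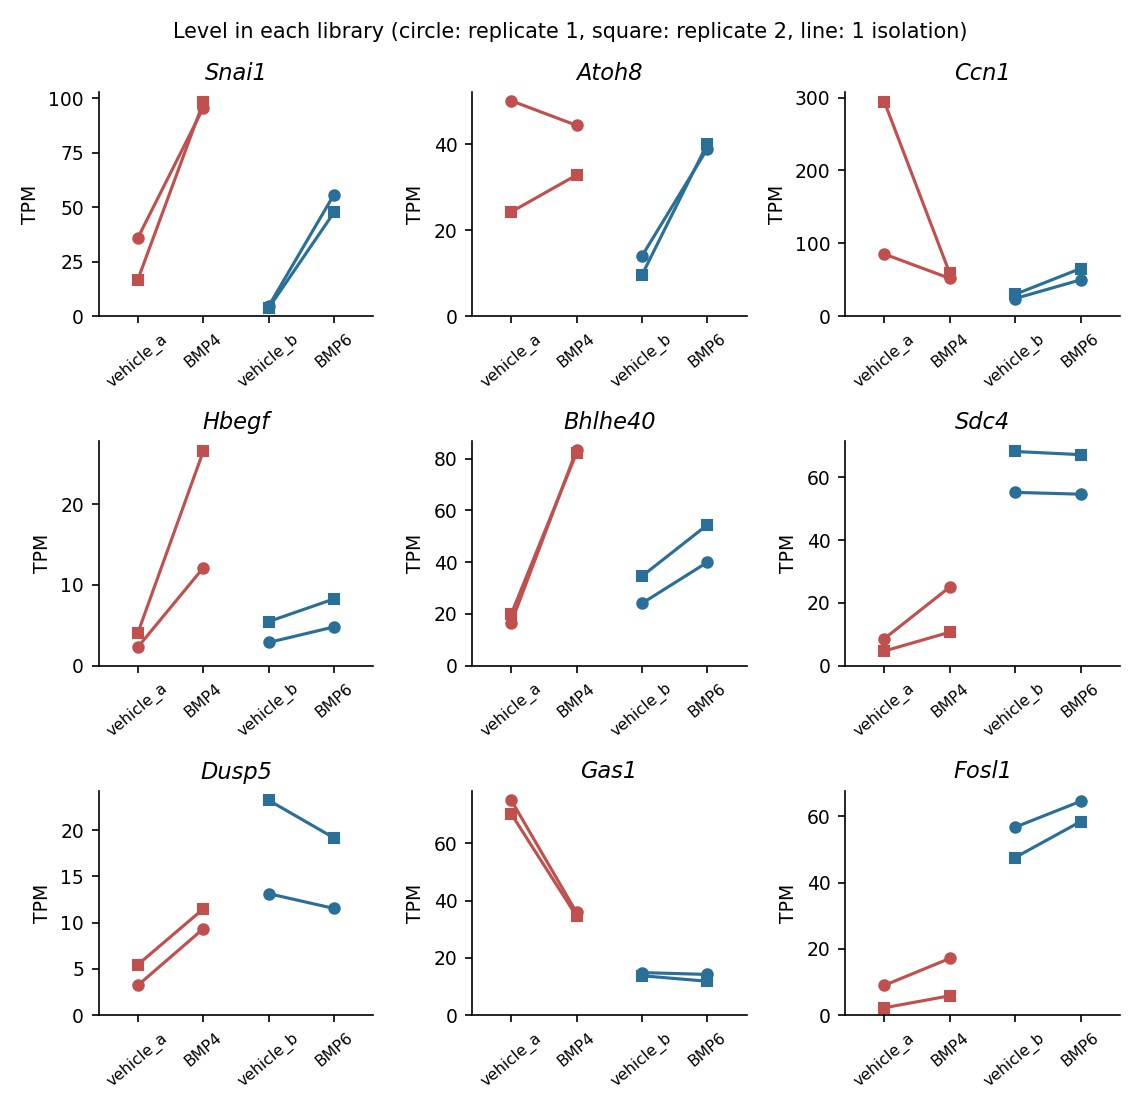
TPM in each library for 9 genes, with vehicle_a and BMP4 in red and vehicle_b and BMP6 in blue. Circles are replicate 1, squares replicate 2, and each line joins the vehicle and stimulated culture of 1 isolation, on axes that start at 0. The vehicle levels of Hbegf overlap between the experiments, while those of Bhlhe40, Sdc4, Fosl1 and Gas1 do not.

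Immediate early genes, transcribed within minutes of a stimulus from factors already present, had a median difference of -0.34 over 35 members. Both BMP6 isolations lay below both BMP4 isolations for 14 and above them for 6, beside 21.8% and 26.7% of all members. The BMP4 isolations did not agree on this list: the median change was 0.89 in isolation 48 and 0.34 in isolation 54, beside 0.26 and 0.22 with BMP6. Without isolation 48 the median difference was 0.08. Egr1 stood at 3.89 and 211 TPM in vehicle_a and Fos at 3.85 and 74.1 TPM, so the vehicle culture of isolation 54 stood far above that of isolation 48. The change of Egr1 was 2.27 in isolation 48 against -2.70 in isolation 54, and that of Fos was 0.92 and -2.20. That of Dusp1 was 0.63 and -0.93. These 3 were named after their values were seen.

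Other immediate early genes changed in the same direction in both BMP4 isolations. Arc (chr15:74540932-74544419), known as an activity-induced gene of neurons, went from 0.779 and 1.20 TPM to 6.74 and 17.9 TPM with BMP4 and from 1.14 and 0.847 TPM to 2.37 and 2.62 TPM with BMP6. Its difference was -1.96 ± 0.35 (SE, limma adjusted p = 0.235). Gadd45b (chr10:80765907-80768038), a stress and growth-arrest gene, went from 21.8 and 26.3 TPM to 107 and 114 TPM with BMP4. With BMP6 it went from 36.1 and 40.0 TPM to 85.5 and 82.5 TPM. It rose with both ligands, by 2.18 and 1.13 on average, a difference of -1.04 ± 0.10 (SE, limma adjusted p = 0.151; by voom 0.0318). Junb, an AP-1 subunit, also rose with both and had a difference of -0.42. Mafk, a small MAF protein, had one of -1.10 and Ier5, an early-response gene, one of -0.80, with changes of 0.79 and 0.77 for BMP4 and -0.03 and 0.01 for BMP6. Sik1, a salt-inducible kinase chosen after its values were seen, rose with both ligands and had a difference of 0.55.

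Ccn1 (chr3:145352731-145355736), a matricellular protein induced by serum response factor and YAP, was the highest of the immediate early list. It stood at 85.3 and 294 TPM in vehicle_a and at 52.0 and 58.9 TPM with BMP4, and at 24.3 and 30.1 TPM in vehicle_b and 50.0 and 65.5 TPM with BMP6. The stimulated levels overlapped and the vehicle levels did not. The changes were -0.71 and -2.31 with BMP4 and 1.02 and 1.11 with BMP6, a difference of 2.58 ± 0.51 (SE, adjusted p = 0.248), and neither response was called alone. Ccn2, its relative, gave -0.82 with changes of 2.41 and 0.39 for BMP4, and 0.19 without isolation 48.

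The genes with the smallest unadjusted p of the difference had tight changes within each ligand, which a choice by that p favours. Rnf19b (chr4:128952064-128979528), a ubiquitin ligase, changed by 1.08 and 1.19 with BMP4 and by 0.11 and 0.18 with BMP6, a difference of -0.99 ± 0.07 (SE). Jmjd1c (chr10:66963037-67092105), a jumonji-domain protein, changed by 1.13 and 1.16 against 0.09 and 0.14. Zfp36l2, which binds AU-rich elements and promotes mRNA decay, changed by 1.11 and 1.00 against 0.11 and 0.07. Bhlhe40 (chr6:108637590-108643886), a helix-loop-helix repressor with a role in the clock, went from 16.5 and 19.9 TPM to 83.3 and 82.2 TPM with BMP4 and from 24.1 and 34.6 TPM to 40.0 and 54.4 TPM with BMP6. Each of these 4 had a limma adjusted p of 0.105 for the difference and 0.00689 by voom. All 4 rose with BMP4 by limma's adjusted p and were not called for BMP6. Mex3b, an RNA-binding protein, gave -0.99 with a change of opposite sign in the ligands, 0.55 and 0.65 against -0.37 and -0.41. Each gene of this paragraph stood higher in both vehicle_b than in both vehicle_a libraries, beside 5464 of all 15121 members. Zfp36l2 stood at 19.9 and 15.9 TPM in vehicle_a, 43.6 and 32.3 TPM with BMP4, and 50.7 and 60.4 TPM in vehicle_b. The part of these starting levels in the differences was not tested.

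Further genes leaned to BMP4. Sdc4 (chr2:164266167-164285106), a heparan sulfate proteoglycan of muscle stem cells, rose with BMP4 from 8.65 and 4.69 TPM to 25.1 and 10.7 TPM. It stood at 55.2 and 68.2 TPM in vehicle_b and 54.6 and 67.2 TPM with BMP6. The BMP6 experiment was above the BMP4 experiment in every library, and the difference of change was -1.31 ± 0.13 (SE, adjusted p = 0.176 by limma and 0.0126 by voom). Sox9, a chondrogenic transcription factor, changed by 1.88 and 1.23 against 0.20 and 0.07. Sh3bp2, an adaptor protein, had a difference of -1.25 and Zfp469, a zinc-finger gene, of -1.04. Sh3bp2 stood at 4.23 and 2.74 TPM in vehicle_a and at 15.2 and 13.1 TPM in vehicle_b. Zfp469 was low in the BMP6 experiment, at 0.743 and 0.361 TPM in vehicle_b and 0.899 and 0.588 TPM with BMP6. Csf1, Ddit4 and Fstl3 gave differences of -0.88, -0.83 and -0.68. Csf1 stood at 133 and 21.2 TPM in vehicle_a and at 323 and 340 TPM in vehicle_b. Ddit4 was also higher in vehicle_b (68.1 and 97.75 TPM against 54.7 and 25.8 TPM). Fstl3 was lower there (2.58 and 2.87 TPM against 4.97 and 10.9 TPM).

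Some genes were lower after BMP4 and nearly level after BMP6. Gas1 (chr13:60322219-60325179), a Hedgehog co-receptor, fell with BMP4 from 75.1 and 70.3 TPM to 35.9 and 34.6 TPM. It stood at 14.9 and 13.8 TPM in vehicle_b and at 14.2 and 11.9 TPM with BMP6. The difference was 0.90 ± 0.08 (SE, limma adjusted p = 0.134; by voom 0.00706), with vehicle levels that did not overlap. Pfkfb3, a glycolysis enzyme, changed by -1.45 and -1.06 against -0.11 and -0.07, and Ciart, a clock repressor, by -0.88 and -0.97 against -0.09 and -0.12. Both fell with BMP4 by limma's adjusted p. Rpph1, the RNA of ribonuclease P, had a difference of 1.40, Prr12 of 0.82 and Nckap5l of 0.74. Myf5, a myogenic regulator, fell with both ligands, with mean changes of -1.17 and -0.70, a difference of 0.47 ± 0.06 (SE).

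The Hedgehog list as a whole pointed the same way. Of 10 members, 9 had a positive difference, 8 lay higher in both BMP6 isolations and 6 reached an unadjusted p under 0.05 with BMP6 higher, beside 26.7% and 7.74% of all members for the last counts. The median was 0.35 beside 0.02 over all members. Boc, a co-receptor, gave 0.62, Ptch1, the receptor and target, 0.41 and Smo, the signal transducer, 0.29. These 3 were named after their values were seen. In 4 of the 10 the mean of vehicle_b was above that of vehicle_a.

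Genes with the more positive change with BMP6 also included Sp7, an osteogenic factor that rose with BMP6 and had a difference of 0.79. Sp7 stood at 7.67 and 5.97 TPM in vehicle_a and at 1.77 and 2.73 TPM in vehicle_b. Its level stayed lower in both BMP6 libraries (4.11 and 7.23 TPM) than in both BMP4 libraries (9.16 and 8.40 TPM). Map7d1, a microtubule-associated gene, gave 0.40 and Actb-ps1, a pseudogene whose reads cannot be separated from Actb, 0.82 by limma but 0.23 by voom (adjusted p = 0.2256). Bcl3, the highest member of the NF-kB list, gave 0.81 with changes of -0.69 and 0.23 for BMP4. AV099323, an uncharacterized locus singled out after its values were seen, changed by -2.42 and -5.15 with BMP4 and by 0.11 and -0.01 with BMP6, a difference of 3.84.

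Several other lists differed less. Of 18 members among p53 targets, 8 lay lower in both BMP6 isolations and 0 higher, beside 21.8% and 26.7% of all members, with a median of -0.11 and Pmaip1, a BH3-only protein, lowest at -0.64. The 32 cell cycle genes had a median of 0.07, with 12 higher and 3 lower in both BMP6 isolations, read against the same 26.7% and 21.8%. The 21 TGF-beta and activin targets had a median of -0.21, with 9 lower and 4 higher beside 21.8% and 26.7%, a list that shares Smad7, Skil, Tgif1 and Bhlhe40 with lists above. The 15 mRNA decay factors gave -0.16. Muscle fibre markers gave 0.16 over 18 members, from -0.40 for Tnnc2 to 0.43 for Ckm, and fibroblast markers 0.16 over 6 members, Col1a1 among them at 0.30. Of the 18 fibre markers, 16 had a positive difference, beside 8143 of all 15121 members. In both BMP6 isolations 10 of the 18 lay higher and 1 lower, again beside 26.7% and 21.8%. By limma 5 of the 18 had an unadjusted p under 0.05 with BMP6 higher, beside 7.74% of all members.

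**Figure D4:**
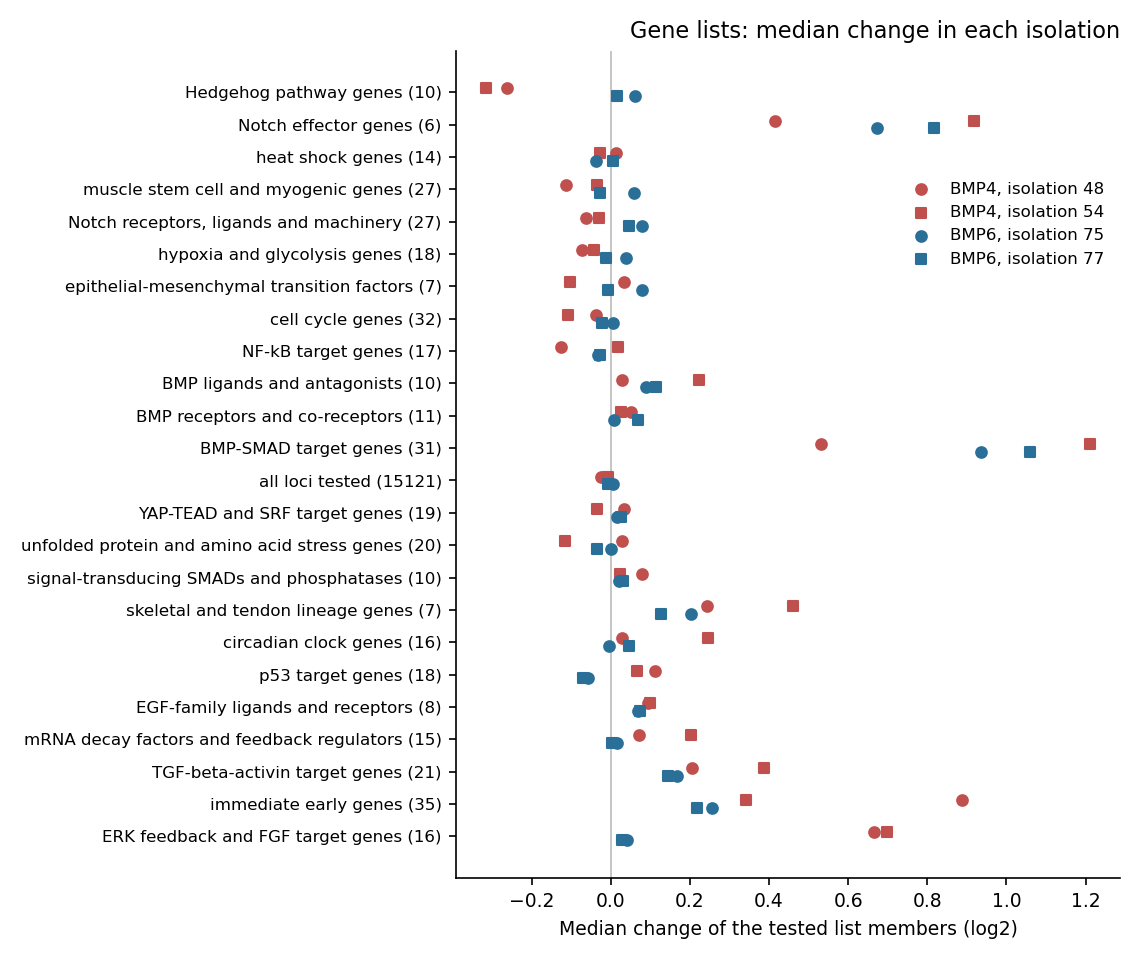
Median log2 change of the tested members of the larger lists, marker lists left out (horizontal axis) in each isolation, with the number of members in brackets and all loci tested for comparison. The ERK feedback list stands at 0.67 and 0.70 in the BMP4 isolations and at 0.04 and 0.03 in the BMP6 isolations, while the BMP-SMAD target list overlaps between the ligands.

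The values above are log2 differences of TPM plus 0.5, which understate the change of genes with low TPM. limma's p-values set a difference or a response against the spread between isolations of a ligand. That spread had 2 residual degrees of freedom, with 3.03 more borrowed from the other loci.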

How the data were processed

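Per the labels' protocols, strand-specific poly(A) libraries were read from one end over 50 nt. The submitters' processing notes name STAR 2.7.11a, SAMtools 1.17 and GRCm39 as the build. The authors deposited TPM values, FPKM values and the coverage signal of transcripts, made with StringTie 2.2.1 per the file headers. TPM in the joint table equalled each library's own table within 1e-05 at all 55223 loci. Reads were estimated as coverage times length over 50 nt. Of the loci 1210 carry more than 1 gene name, and overlapping genes are uncertain.

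limma 3.58.1 (R 4.3.3) was fitted with a variance trend to log2(TPM + 0.5) of the 15121 loci that averaged 1 TPM or more, with the isolation as a block, and the difference, each response and their average were tested two-sided with Benjamini-Hochberg adjustment at 0.05. It was tested on simulated data. The block follows the rule for the comparison: the labels put the same isolation number on a vehicle and a stimulated library, and deviations of such pairs from their group means correlated across loci at 0.734 (BMP4) and 0.507 (BMP6). 16 alternatives were run, and voom without the block was added after seeing the data.

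The members, the 31 gene lists and the tests were chosen with earlier results of these data known. The rule for named genes took all loci called for the difference, the 10 highest and 10 lowest differences among loci called for the average, the 8 smallest unadjusted p in each direction among loci with 1 gene name (models named Gm or Rik left out), 20 fixed genes, and the highest and lowest member of each list. It gave 80 genes, of which 60 are named, and genes outside it are marked as chosen after their values were seen. Sequences come from RefSeq on GRCm38.p6. Labels give no batch. A gene that the rule names is not reported here.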

Additional observations from a re-analysis of the deposited data

Results flagged for a closer look

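At 17 of the 79 genes named above, the change had one sign in both BMP4 isolations and the other sign in both BMP6 isolations, a pattern that 1495 (9.89%) of all members showed with BMP6 positive and 1171 (7.74%) with BMP6 negative. The genes with positive changes for BMP6 and negative changes for BMP4, with the log2 difference in brackets, were Ccn1 (2.58), Prr12 (0.82), Actb-ps1 (0.82), Nckap5l (0.74), Erbb2 (0.57), Notch3 (0.52), Map7d1 (0.40), Acvr1 (0.34), Smo (0.29) and Ctdsp2 (0.17). Those with negative changes for BMP6 and positive changes for BMP4 were Dusp5 (-1.43), Sdc4 (-1.31), Tgif1 (-1.27), Mex3b (-0.99), Jag1 (-0.80), Spry1 (-0.76) and Pmaip1 (-0.64). None of these differences passed limma's adjusted p under 0.05, and several of the changes behind them were close to 0, such as those of Sdc4 with BMP6 (-0.01 and -0.02).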

How the results depend on the processing

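The difference had 0 calls by limma in all alternatives other than voom with the isolation block (43) and leaving out an isolation (0 to 48). The block sets the size of the other counts: with no replicate block the pairing was ignored and BMP4 had 3 calls, BMP6 2 and the average 12 (voom with no block 3, 0 and 13), and the difference kept 0. voom with the block gave 1093, 71 and 336, no filter on low values 0, 0 and 8, and a minimum of 5 TPM 220 for BMP4. Leaving out 1 isolation gave 29 to 281 calls for BMP4, 0 to 77 for BMP6 and 24 to 320 for the average. The cause of these shifts was not tested.

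Of the 121 responders, between 70 and 75 had the less positive log2 change with BMP6 in every alternative that kept all 121, and 59 of 101 at a minimum of 5 TPM. Loci at least 1 log2 unit apart with BMP6 higher numbered 15, 5 and 3 at pseudocounts of 0.1, 1 and 2, 5 at a minimum of 5 TPM, 14 with no filter and 5 after quantile normalization. With BMP6 lower they numbered 5 at a pseudocount of 2, 10 at 5 TPM and 30 with no filter, where 5479 loci lay lower without overlap. Leaving out 1 isolation compares fewer values, and it gave 25 to 60 and 43 to 82 loci apart by 1 unit. Loci without overlap then numbered 5592 to 6715 with BMP6 higher and 4667 to 5600 with BMP6 lower.

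The ERK feedback median stayed negative: -0.76, -0.58 and -0.48 at pseudocounts of 0.1, 1 and 2, -0.78 at 5 TPM, -0.58 with no filter, -0.62 with FPKM, -0.77 after quantile normalization, -0.61 and -0.78 with voom with and without the block, and -0.70 to -0.50 on leaving out an isolation. The immediate early median became 0.079 without isolation 48. Single genes changed sign on leaving out an isolation: Id1 ranged from -0.033 to 0.61, Id2 from -0.44 to 0.36, Ccn2 from -1.84 to 0.19, Fos from -0.34 to 2.78, Egr1 from -2.18 to 2.79 and Acvr2b from -0.22 to 0.087. The difference moved by over 1.5 times or changed sign at 28 of the 79 named genes on leaving out an isolation and at 10 by voom with the block, among them Id4 (-0.71 by voom), Nog (0.71), Ccn2 (-0.24), Acvr1 (0.18) and Actb-ps1 (0.23). Nog gave -0.018 at a pseudocount of 2. Depth was similar in all libraries, and the number of isolations, 2 a ligand, limits the precision of these differences.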
